A study of Mus musculus with 19 samples.

Results

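Vim, Cdh2, Zeb1, Zeb2, Snai1, Snai2 and Twist1 are the genes by which a mesenchymal state is usually recognised. They were taken by name from an expression matrix of 12778 mouse genes, and 7 of 7 were in it. All libraries came from mouse cells grown with LIF and serum, and RNA was read from the 3′ end of polyadenylated transcripts (QuantSeq; 200 ng of total RNA, single reads of 50 bases). Induced pluripotent stem cells (iPSC) were reprogrammed mouse embryonic fibroblasts, which had received Oct4, Sox2 and Klf4 and were sampled after more than 18 passages. They were wild type (WT, 3 libraries) or lacked a microRNA cluster: miR-290 (miR-290 KO), miR-302 (miR-302 KO) or both (double KO), where KO stands for knockout. Each KO genotype had 2 colonies with 2 libraries per colony. Embryonic stem cells (ESC), which were derived and not reprogrammed, had the miR-290 KO or the miR-302 KO, with 2 libraries each. Colonies were independent derivations per the series description, which makes an exception for the WT iPSC. WT libraries may thus share a derivation, and p-values against them may measure technical spread in that arm. The main tests pooled the spread over all groups, so technical spread may enter the p-values of every comparison. ESC libraries carry no colony label and were also taken as samples, so the same limit may hold for them. No WT ESC and no source fibroblasts were analysed here. The deleted microRNAs themselves were not measured, so the genotypes rest on the labels.

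In the epithelial-mesenchymal transition, cells give up tight contacts between neighbours and take on a motile form. The transcription factors of the ZEB, SNAIL and TWIST families drive it, and ZEB and SNAIL proteins bind E-boxes in the E-cadherin gene (Cdh1) and repress it. The cadherin at the cell surface then changes from E-cadherin to N-cadherin (Cdh2), and the filament protein vimentin (Vim) replaces keratins. Reprogramming of fibroblasts passes through the reverse process, and pluripotent mouse cells carry E-cadherin. The miR-200 family and the ZEB factors repress each other. MicroRNAs of both clusters are abundant in pluripotent cells and largely share a seed, the stretch of a microRNA that pairs with its targets.

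The microRNAs are shown because the genotypes remove them and because both clusters hold the same seed. The mature sequences below are from RefSeq (GRCm38.p6), 5′ to 3′, with the seed (bases 2 to 8) in capitals.
miR-291a-3p (miR-290 cluster, chromosome 7): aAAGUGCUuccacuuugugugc
miR-294-3p (miR-290 cluster, chromosome 7): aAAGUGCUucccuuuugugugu
miR-295-3p (miR-290 cluster, chromosome 7): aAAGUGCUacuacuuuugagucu
miR-302b-3p (miR-302 cluster, chromosome 3): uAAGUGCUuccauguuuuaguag
miR-302d-3p (miR-302 cluster, chromosome 3): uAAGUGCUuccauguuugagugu

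Among the arms found, these 5 had the seed AAGUGCU. Some arms of the clusters had no entry in the source used, so the set that shares the seed may be larger. Of the other arms matched, miR-290a-3p (AAGUGCC) and miR-291b-3p (AAGUGCA) differed from it in the last base, miR-302c-3p had it shifted by 1 base (AGUGCUU), and miR-293-3p (GUGCCGC) and miR-367-3p (AUUGCAC) had other seeds. The annotated 3′ UTR of each of the 7 genes (GENCODE vM21, 1 transcript per gene, transcript strand) was searched for the reverse complement of the shared seed, AGCACTT. Vim had 1 match in a UTR of 342 bases, at UTR bases 168 to 174, followed by an A, and both annotated Vim UTRs held it. The motif was in 3.4% of the 1729 UTRs of like length (within 20%). Zeb1, Zeb2, Cdh2, Snai1, Snai2 and Twist1 had no match. Zeb1 had 1 match to the shorter GCACTT, which lies within AGCACTT. The shorter motif was in 49.0% of the UTRs of like length to that of Zeb1. The Vim site is printed here on the plus strand of GRCm38 with the match in capitals.
Vim 3′ UTR, chr2:13582639-13582661: agaaagaagctcAGCACTTaaca

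The ZEB transcripts differed from the others in matches to the miR-200 seeds. Zeb2 had 5 matches to CAGTATT (seed AAUACUG of miR-200b, miR-200c and miR-429) and 4 to CAGTGTT (seed AACACUG of miR-200a and miR-141) in a UTR of 4941 bases. Of the 1046 UTRs of like length, 37.5% had at least 1 CAGTATT and 50.3% at least 1 CAGTGTT, with means of 0.51 and 0.78 matches. Zeb1 also had 5 and 4 matches, in 2401 bases. Snai2 had 1 of each, Snai1 had 1 CAGTATT, and Vim, Cdh2 and Twist1 had neither. Zeb2 also had 2 matches to GTGCAAT, the reverse complement of the seed of miR-367, which belongs to the miR-302 cluster. That motif was in 20.5% of the UTRs of like length, with a mean of 0.24 matches. A match describes letters in the annotation and does not show that a site is used. The lines below give a miR-200 of each seed and 3 of the Zeb2 matches that lie close together, between UTR bases 741 and 826, on the minus strand of GRCm38.
miR-200b-3p (chromosome 4): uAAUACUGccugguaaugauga
miR-200a-3p (chromosome 4): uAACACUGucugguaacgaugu
Zeb2 3′ UTR, chr2:44987822-44987844: gccatccttgtaCAGTGTTcaga
Zeb2 3′ UTR, chr2:44987781-44987803: ttgcaccagcttCAGTGTTaagc
Zeb2 3′ UTR, chr2:44987743-44987765: aagcacccgtgtCAGTATTagac

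Levels are in CPM, the reads of a gene scaled to a common library total, and come from reads recovered from the deposited log2 values. Libraries held between 6332634 and 24609996 recovered reads (median 17177304), and 3 reads over a group, the least taken as detected, came to between 0.044 and 0.087 CPM. Means and SDs are over samples, which are colonies (means of their libraries) for KO iPSC and libraries for WT iPSC and ESC. Differences are log2 fold changes from limma over 13 samples, with a gene called at an adjusted p under 0.05 over 12778 genes. One library, miR-302 KO iPSC colony 1 library 2, stood apart: its 20 most abundant genes took 17.3% of reads against 8.7% to 13.7% in the others. The double KO cells carry the label iPSC, and the series text also uses the term iPSC-like. All 10 pluripotency markers tested fell in them, and their summed level was 208 to 330 CPM in the double KO libraries against 2980 to 3650 CPM in WT. Most of the double KO sum came from Fgf4, with 127 to 222 CPM against 242 to 301 CPM in WT. Oct4 (Pou5f1), Sox2 and Klf4 are among these markers, and reads of the reprogramming transgenes cannot be told apart here. In bulk RNA, fewer cells of a kind and less RNA per cell cannot be told apart, and this holds for every level below. Levels compare libraries within a gene and are not compared between genes.

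Loss of both clusters went with higher Vim, Cdh2, Zeb2, Snai2 and Zeb1. Against WT iPSC, these 5 of the 7 genes rose in the double KO, 0 fell, and Snai1 and Twist1 were not called (limma, n = 2 colonies and 3 libraries). The background was high: 49% of all genes were called in this comparison, 27.4% higher and 21.5% lower. The share of all genes with double KO samples apart from every other sample was not counted, which limits each such statement below. The median log2 fold change of the 7 genes was 3.13, beside 0.16 over all genes. The 7 genes were chosen with earlier results of these data known. Their counts and medians beside those of all genes are thus a description and no independent test. After the loss of miR-290 alone, Vim was called higher. The median log2 fold change of the 7 genes was 1.61, beside 0.14 over all genes. An unadjusted p under 0.05 was reached by 3 of the 7 members and by 2136 of the 12778 genes tested (limma). No member was called after the loss of miR-302 alone (the values and backgrounds of these comparisons follow). The comparisons with WT share the WT libraries.

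**Figure D1:**
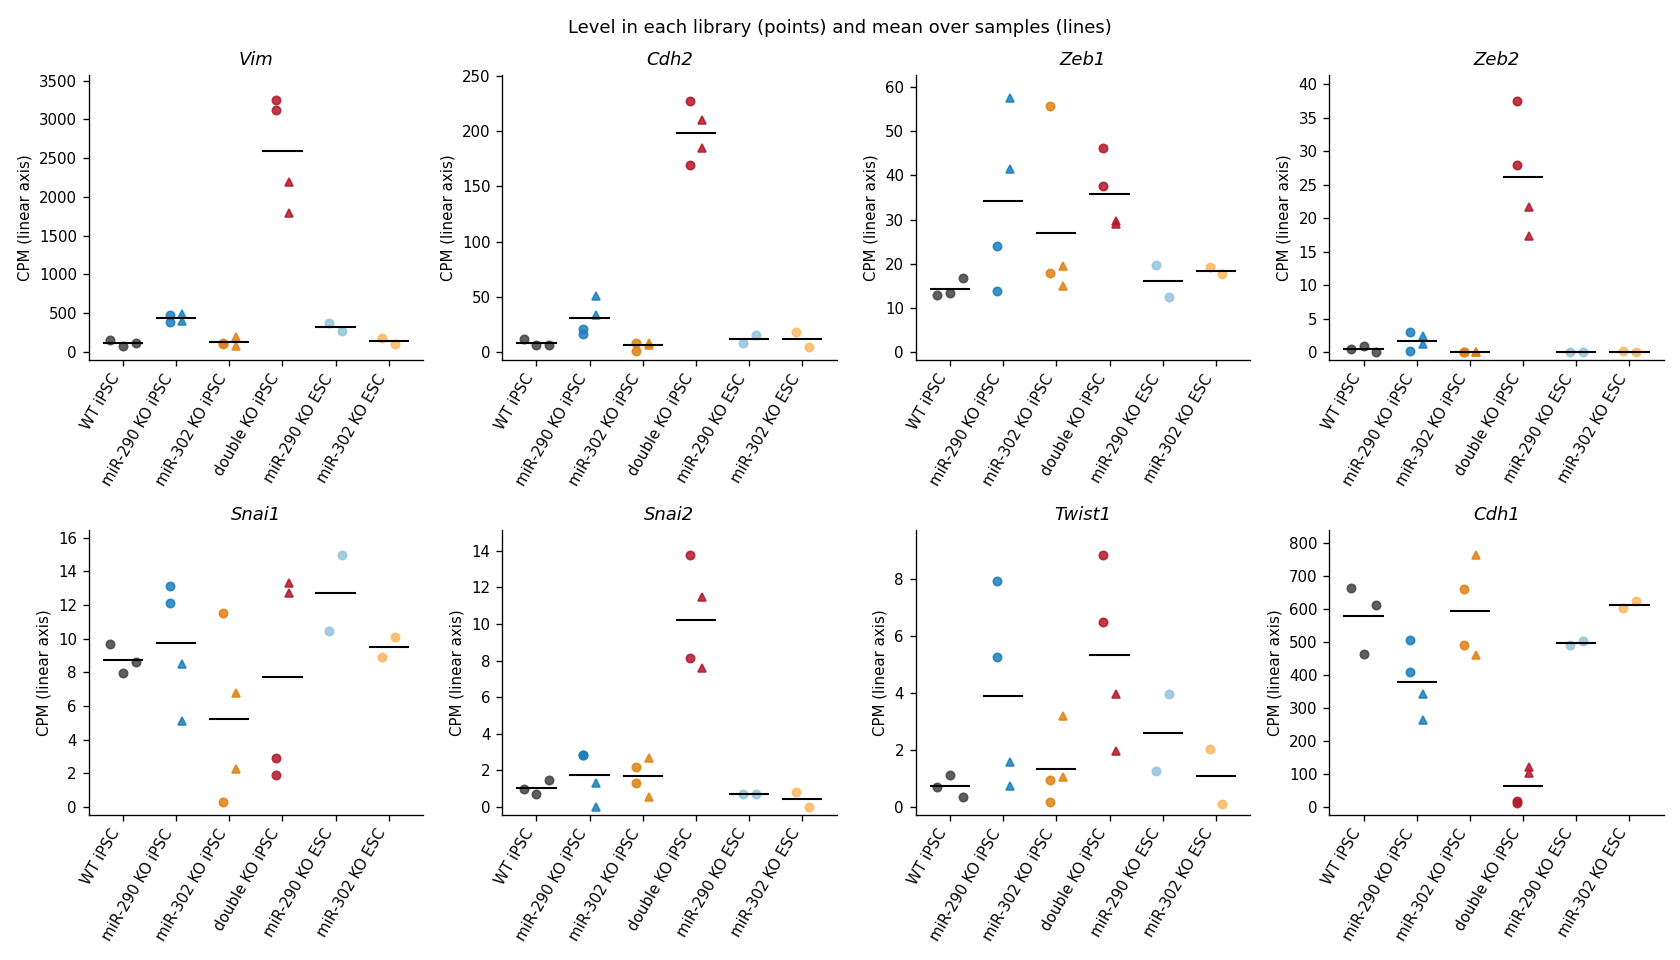
Level of each of the 7 genes and of Cdh1 in CPM (vertical axes, linear, a scale per gene) in the 19 libraries of 6 groups (horizontal axis). Points are libraries, circles and triangles in the KO iPSC groups are colonies 1 and 2, and lines are means over samples. In Vim, Cdh2, Zeb2 and Snai2 the 4 double KO libraries lie above every library of the other groups. The share of all genes that do so was not counted.

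Vimentin is the intermediate filament protein of mesenchymal cells. The gene spans bases 13573927 to 13582826 of chromosome 2 (plus strand, GRCm38). Vim had 156.9, 83.2 and 119.0 CPM in the 3 WT libraries. In the double KO it had 3245, 3121, 2198 and 1787 CPM, the first pair from colony 1. Both colonies (3183 and 1992.5 CPM) lay above every other sample. The mean was 2588 ± 842 CPM against 119.7 ± 36.9 in WT, and the log2 fold change was 4.44 (SE 0.30, adjusted p = 2.07e-07). That change was larger than those of 94.5% of the genes tested.

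Vim was the only member called after the loss of miR-290 alone. The 4 miR-290 KO iPSC libraries had 473, 384, 401 and 492 CPM, with no overlap with WT and close agreement of the colonies (428 and 446 CPM). Vim rose against WT by 1.91 on the log2 scale (SE 0.30, adjusted p = 0.0112 by limma). In this comparison 1.57% of all genes were called, 1.21% higher. Without colony 1 the difference was 1.94 (adjusted p = 0.0521) and without colony 2 it was 1.88 (adjusted p = 0.174), so the call needed both colonies. In the miR-302 KO iPSC, Vim had 116, 101, 196 and 79.9 CPM, which overlapped with WT. Their log2 fold change from WT was 0.00, with a 95% interval from −0.65 to 0.66.

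The double KO rise of Vim was larger than the sum of the changes in the single KOs. On the log2 scale it exceeded that sum by 2.52 (SE 0.45, adjusted p = 0.00192), in a contrast that called 23.6% of all genes, 12% with a positive value. Against miR-290 KO iPSC the double KO was higher by 2.53 (SE 0.33, adjusted p = 0.000104), and against miR-302 KO iPSC by 4.43 (SE 0.33, adjusted p = 6.24e-07). Of all genes, 32.4% were called in the first of these contrasts (15.6% higher) and 46.9% in the second (28.5% higher). The single KO iPSC also differed from each other in Vim, by 1.90 (SE 0.33, adjusted p = 0.0187), where 2.25% of genes were called, 1.85% higher and 0.391% lower. That call was lost without either miR-290 KO colony or without miR-302 KO colony 1 (adjusted p = 0.0857, 0.12 and 0.152).

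Between reprogrammed and derived cells, Vim differed by 0.47 (95% interval −0.25 to 1.19) in the miR-290 KO and by −0.23 (−0.95 to 0.49) in the miR-302 KO, and neither was called. The miR-290 KO ESC libraries had 372 and 264 CPM, and the miR-302 KO ESC libraries 177 and 105 CPM. Across the 6 groups the means ran from double KO (2588) over miR-290 KO iPSC (437.4), miR-290 KO ESC (318.3), miR-302 KO ESC (140.9) and miR-302 KO iPSC (123.1) to WT iPSC (119.7). The samples of neighbouring groups did not overlap at the first 3 steps of this order, down to the miR-302 KO ESC, and overlapped at the last 2. The ESC genotypes differed by 1.2 (SE 0.33, adjusted p = 0.146), which was not called, in a contrast that called 0.587% of genes.

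N-cadherin, encoded by Cdh2 (chromosome 18, bases 16588877 to 16809246, minus strand, GRCm38), is the adhesion protein of neural and mesenchymal cells. Cdh2 had 12.1, 6.47 and 6.70 CPM in WT. In the double KO the libraries had 227.8 and 169.7 CPM (colony 1) and 184.6 and 209.9 CPM (colony 2). All 4 were above every other library, and the colonies were alike, with 199 and 197 CPM. The mean was 198.0 ± 1.08 CPM against 8.42 ± 3.18 in WT, so that Cdh2 rose by 4.58 on the log2 scale (SE 0.57, adjusted p = 3.55e-05).

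The miR-290 KO iPSC colonies lay between these groups. Their Cdh2 libraries had 21.0, 16.3, 50.8 and 33.5 CPM, above the 3 WT libraries. Their log2 fold change of 1.76 (SE 0.57, adjusted p = 0.142; 95% interval 0.53 to 2.99) was not called. In the miR-302 KO iPSC, Cdh2 had 7.78, 1.19, 6.57 and 8.06 CPM. The lowest of these was the library that stood apart, and the change against WT of −0.74 (SE 0.57, adjusted p = 0.525) came to −0.10 without it. Cdh2 in the double KO exceeded the sum of the single KO changes by 3.57 (SE 0.84, adjusted p = 0.00989). The ESC groups had 7.95 and 15.7 CPM with the miR-290 KO and 17.8 and 4.83 CPM with the miR-302 KO, and overlapped with each other and with WT iPSC.

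**Figure D2:**
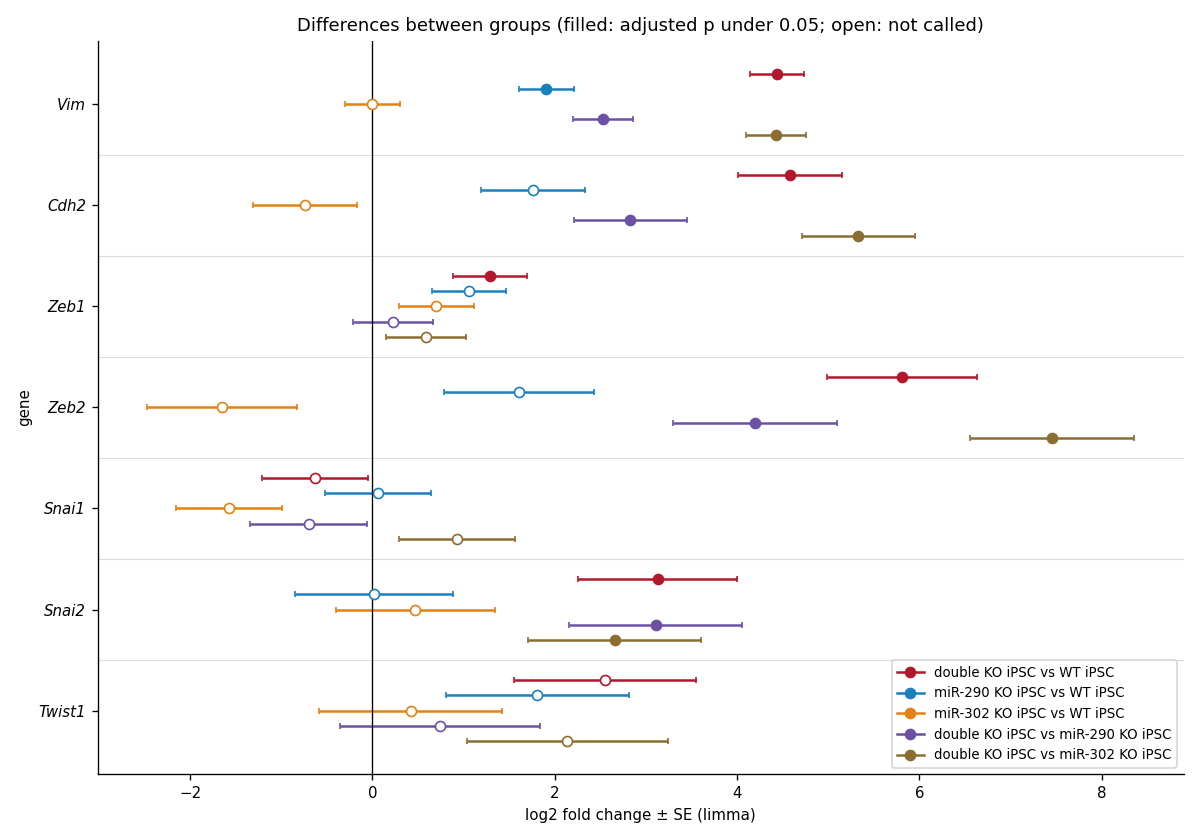
Log2 fold change (horizontal axis) of the 7 genes (vertical axis) in 5 comparisons of iPSC groups; points are limma estimates, bars their SE, filled points had an adjusted p under 0.05. Vim, Cdh2, Zeb2 and Snai2 were called in the double KO against each of WT, miR-290 KO and miR-302 KO iPSC; the estimates of Zeb2 against the miR-302 KO depend on the prior count, since that group had 0 reads.

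ZEB2 is a zinc-finger repressor of Cdh1 that also takes part in neural and neural crest development. Zeb2 (chromosome 2, bases 44983632 to 45117395, minus strand, GRCm38) had few reads outside the double KO and the miR-290 KO iPSC. It had 9, 16 and 0 reads in the WT libraries, and 0 reads in each of the 4 miR-302 KO iPSC libraries. In the ESC it had 0 and 1 reads with the miR-290 KO and 2 and 0 with the miR-302 KO. The double KO libraries had 586, 387, 371 and 284 reads, or 37.6, 28.0, 21.6 and 17.3 CPM.

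Every double KO library was far above the rest for Zeb2. The mean was 26.12 ± 9.41 CPM against 0.45 ± 0.43 in WT, and Zeb2 rose by 5.81 on the log2 scale (SE 0.82, adjusted p = 9.92e-05). Against the miR-302 KO iPSC, Zeb2 was at least 582.7-fold higher, taking 3 reads over that group as the floor. Against the ESC the ratio was 888 (exact Clopper-Pearson 95% interval 159 to 35100) with the miR-290 KO and 452 (125 to 3740) with the miR-302 KO. These ratios rest on 1 and 2 reads over the ESC groups, which is under the floor of 3 reads. They cannot be ranked against the 582.7, which was taken at the floor. The intervals cover counting error only. The excess over the sum of the single KO changes was 5.85 (SE 1.21, adjusted p = 0.00477), where the miR-302 KO with 0 reads enters at the prior.

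The miR-290 KO iPSC had 4, 46, 31 and 15 Zeb2 reads, or 0.183, 2.92, 1.26 and 2.37 CPM, so the libraries of colony 1 spanned those of colony 2. Neither colony overlapped with the WT samples (1.55 and 1.81 CPM against 0 to 0.855). The log2 fold change against WT was 1.61 (SE 0.82, adjusted p = 0.35). Against the miR-302 KO iPSC, Zeb2 in the miR-290 KO iPSC was at least 31.6-fold higher, and the fitted difference was not called (adjusted p = 0.0754). Against miR-290 KO ESC the ratio was 48.2 (exact Clopper-Pearson 95% interval 8.44 to 1920), from 96 reads against 1, and the fitted difference of 3.01 (SE 0.90) had p = 0.00533 and adjusted p = 0.999 by limma. In that contrast 0 of 12778 genes were called, with 492 at an unadjusted p under 0.05.

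ZEB1 is the other ZEB repressor of epithelial genes. Zeb1 (chromosome 18, bases 5591860 to 5775467, plus strand, GRCm38) was read in every library. WT had 12.9, 13.3 and 16.8 CPM, and the double KO had 37.6, 46.2, 29.8 and 29.1 CPM. The double KO libraries lay above WT but within the range of the single KO iPSC. Zeb1 rose against WT by 1.29 (SE 0.41, adjusted p = 0.0187), with 35.67 ± 8.85 CPM against 14.31 ± 2.13. The call was lost without double KO colony 1 (1.04, adjusted p = 0.138) or without WT library 1 or 2 (adjusted p = 0.0514 and 0.0503).

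Zeb1 was variable in the single KO iPSC. The miR-290 KO iPSC had 23.9 and 13.7 CPM in colony 1 and 57.5 and 41.3 CPM in colony 2, with a log2 fold change of 1.06 against WT (SE 0.41, adjusted p = 0.215). The miR-302 KO iPSC had 17.9, 55.7, 19.4 and 14.9 CPM. The 55.7 was in the library that stood apart; the change against WT was 0.70 (SE 0.41, adjusted p = 0.413) with it and 0.29 without it. Against the miR-290 KO iPSC, Zeb1 in the double KO differed by 0.23 (SE 0.44, 95% interval −0.73 to 1.2). The departure from the sum of the single KO changes was −0.47 (SE 0.60, adjusted p = 0.6). Whether Zeb1 and Zeb2 differ in this contrast was not tested.

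Antisense genes overlap 3 of these loci in the annotation. They are Zeb2os and some small RNA genes at Zeb2, Gm15485 at Cdh2, and Gm10125 and Gm16147 at Zeb1, and none of them was in the matrix. Whether the counting used strand is not given in the sources used here, so reads of an antisense partner cannot be told apart from those of the gene.

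SNAI2 (Slug) is a repressor of Cdh1 and a factor of neural crest cells. Snai2 (chromosome 16, bases 14705852 to 14709385, plus strand, GRCm38) had 0.98, 0.70 and 1.47 CPM in WT. The double KO had 8.14, 13.7, 11.5 and 7.57 CPM. The colonies were close (10.9 and 9.52 CPM), and all 4 libraries were above every other library. The log2 fold change was 3.13 (SE 0.87, adjusted p = 0.00984). Without colony 1 of the double KO the change was 3.04 and the call was lost (adjusted p = 0.0596).

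In the single KOs no change was called. Snai2 had 2.84, 2.85, 1.30 and 0 CPM in the miR-290 KO iPSC, a log2 fold change of 0.02 against WT (SE 0.87, 95% interval −1.86 to 1.90). In the miR-302 KO iPSC it had 1.28, 2.19, 2.69 and 0.547 CPM. The double KO was higher than the miR-290 KO iPSC by 3.11 (SE 0.95, adjusted p = 0.0246) and than the miR-302 KO iPSC by 2.66 (SE 0.95, adjusted p = 0.0358). Both calls were lost when double KO colony 1 or 2 was left out (adjusted p = 0.106 and 0.078 for the first, 0.125 and 0.0967 for the second). The first was also lost without miR-290 KO colony 2, with a change of 1.75 (adjusted p = 0.234). The second was also lost without either miR-302 KO colony (adjusted p = 0.0901 and 0.117). The excess over the sum of the single KO changes was 2.64 (SE 1.29, adjusted p = 0.156).

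SNAI1 (Snail) is the best known repressor of Cdh1. Snai1 (chromosome 2, bases 167538195 to 167542814, plus strand, GRCm38) had 9.68, 7.97 and 8.59 CPM in WT. The double KO colonies lay on both sides of that range, with 2.88 and 1.88 CPM in colony 1 and 13.3 and 12.7 CPM in colony 2. Colony 2 was 5.46-fold higher than colony 1, and the libraries of the colonies did not overlap. How many of all genes separate the colonies in this way was not counted. The log2 fold change of the group against WT was −0.63 (SE 0.58, adjusted p = 0.389). Without colony 2 it was −1.84 (adjusted p = 0.0137, called), and without colony 1 it was 0.57.

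The level of Snai1 was spread widely in the single KO iPSC too. The miR-290 KO iPSC had 12.1, 13.1, 5.09 and 8.52 CPM, around the WT level (log2 fold change 0.06, SE 0.58, adjusted p = 0.975). The miR-302 KO iPSC had 11.6, 0.274, 2.22 and 6.76 CPM, where 0.274 CPM, or 3 reads, was in the library that stood apart. The change against WT of −1.57 (SE 0.58, adjusted p = 0.283) came to −0.37 without that library. The ESC had 10.5 and 15.0 CPM (miR-290 KO) and 8.92 and 10.1 CPM (miR-302 KO).

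TWIST1 is a helix-loop-helix factor of mesoderm and neural crest that induces Cdh2. Twist1 (chromosome 12, bases 33957671 to 33959829, plus strand, GRCm38) had 0.711, 1.12 and 0.349 CPM in WT. The double KO had 8.84, 6.51, 3.96 and 1.95 CPM, above WT in 4 of 4 libraries. The log2 fold change of 2.55 (SE 1.00, adjusted p = 0.0508; 95% interval 0.38 to 4.73) was not called. It was called in 10 of the 23 other analyses run, with adjusted p between 0.0138 and 0.28 over all 23. The miR-290 KO iPSC had 7.93 and 5.26 CPM in colony 1 and 0.733 and 1.58 CPM in colony 2, so that colony 1 lay within the double KO range and colony 2 near the WT libraries. The change was 1.81 (SE 1.00, adjusted p = 0.394). The miR-302 KO iPSC had 0.929, 0.183, 1.03 and 3.18 CPM, and the ESC had 1.24 and 3.97 CPM (miR-290 KO) and 2.04 and 0.106 CPM (miR-302 KO).

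Members differed between the miR-290 KO colonies in opposite directions. Colony 2 had more Zeb1 (49.4 against 18.8 CPM, 2.63-fold) and more Cdh2 (42.1 against 18.6 CPM, 2.26-fold) than colony 1, and less Cdh1 (303 against 458 CPM). Colony 1 had more Twist1 (6.60 against 1.16 CPM, 5.71-fold), more Snai2 (2.85 against 0.65 CPM, 4.37-fold) and more Snai1 (12.6 against 6.81 CPM, 1.85-fold). In each of these genes the libraries of the colonies did not overlap. With 2 libraries per colony such a separation arises easily, and the share of all genes that show it was not counted. Vim and Zeb2 differed little between the colony means (1.04-fold and 1.17-fold higher in colony 2). With 1 colony on each side there is no test, and colony 2 holds the library with the fewest reads (6332634).

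No member was called between reprogrammed and derived cells. With either cluster deleted, 0 of 7 members and 0 of 12778 genes were called between iPSC and ESC by limma, with 492 (miR-290 KO) and 1343 (miR-302 KO) genes at an unadjusted p under 0.05. The differences of the members ranged from −0.45 (Snai1) to 3.01 (Zeb2) in the first and from −1.69 (Snai1, adjusted p = 0.441) to 2.11 (Snai2, adjusted p = 0.463) in the second. Without the library that stood apart, the Snai1 difference in the miR-302 KO was −0.49. The Snai2 difference was 3.48 without miR-302 KO ESC library 1 and 0.75 without library 2, and neither was called. The intervals were wide, for example from −0.05 to 2.64 for Cdh2 in the miR-290 KO. In the miR-302 KO iPSC against WT, 0 of 7 members were called, beside 0.0313% of all genes (0.0235% higher and 0.00783% lower), and 1928 genes had an unadjusted p under 0.05.

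E-cadherin was measured beside the members. Cdh1 had 663, 463 and 614 CPM in WT and 13.1 and 111 CPM in the double KO colonies, and fell by 3.92 (SE 0.60, adjusted p = 0.000193). Both double KO colonies were below every other sample, and colony 2 had 8.47-fold more than colony 1. Cdh2 was the same in these colonies (199 and 197 CPM), while Vim, Zeb1, Zeb2 and Twist1 were 1.43-fold to 2.60-fold higher in colony 1. Snai2 was 1.15-fold higher in colony 1, and Snai1 was 5.46-fold higher in colony 2. With 1 colony on each side, the part of any repressor in the level of Cdh1 was not tested. The Cdh1 change in the miR-290 KO iPSC was −0.63 (SE 0.60, adjusted p = 0.641) and was not called by limma. The authors' deposited table of this comparison, which lists genes with an adjusted p of at most 0.05, held Cdh1 as lower (−0.75, SE 0.24). No ESC or miR-302 KO iPSC sample was below 575 CPM except the miR-290 KO ESC (490 and 503 CPM).

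**Figure D3:**
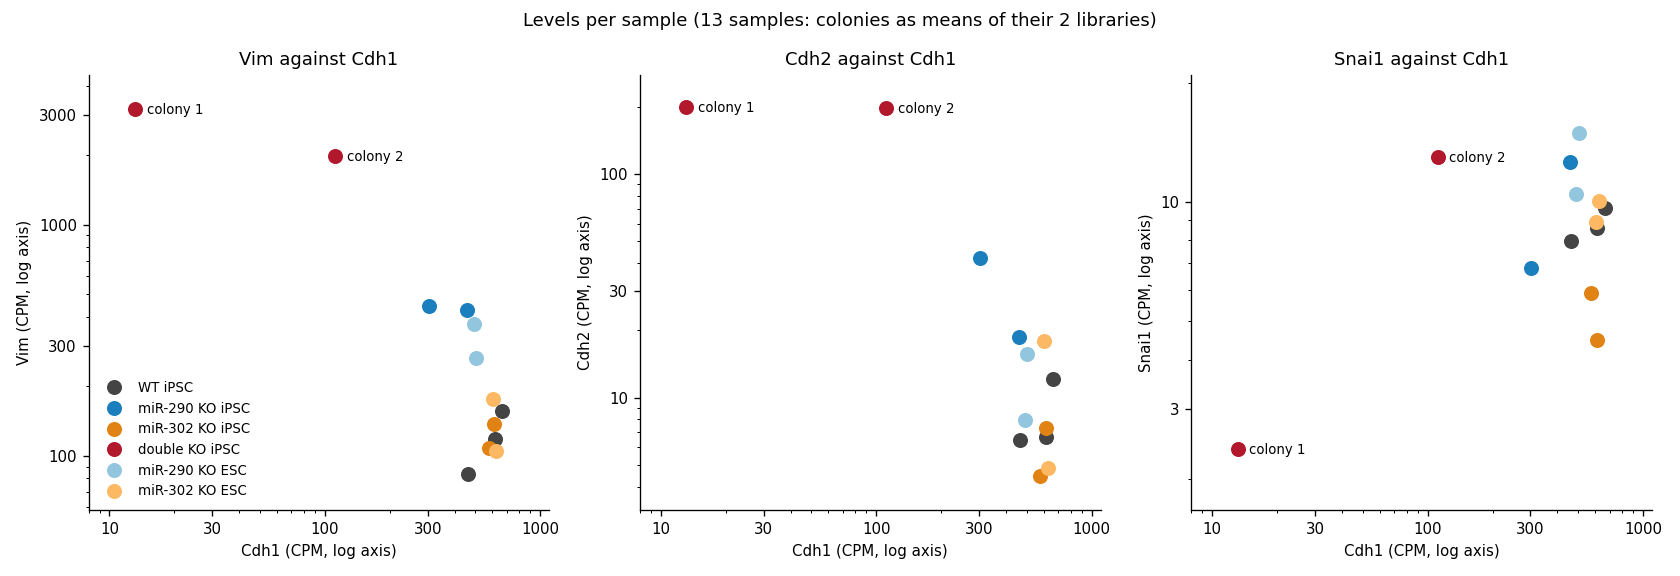
Vim, Cdh2 and Snai1 (vertical axes, CPM, log scale) against Cdh1 (horizontal axes, CPM, log scale) in 13 samples, coloured by group, with colonies as means of their libraries. The double KO colonies lie apart at 13.1 and 111 CPM of Cdh1, with the same Cdh2 and a 5.46-fold difference in Snai1.

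Other genes of mesenchymal cells moved in both directions. Of 20 further mesenchymal effector genes listed, 15 were in the matrix, and in the double KO against WT 5 rose, 6 fell and 4 were not called, with a median log2 fold change of −0.06. S100a6, a calcium-binding protein, rose by 8.88 (SE 0.56, adjusted p = 9.32e-08), from 7.97 ± 5.84 to 3138 ± 22.5 CPM. Axl, a receptor tyrosine kinase, rose by 5.46 (SE 0.47). The collagenase Mmp2 fell by 5.09 (SE 0.42). Fibronectin (Fn1, −0.05), smooth muscle actin (Acta2, 0.12) and transgelin (Tagln, −0.06) were not called. In the miR-290 KO iPSC, 2 of the 15 rose, namely S100a6 (2.52, SE 0.56, limma adjusted p = 0.0455) and Sparc (1.35, SE 0.25, adjusted p = 0.0219).

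Other factors of the transition all moved in the double KO, in both directions. Of 12 listed, 8 were in the matrix, 6 rose and 2 fell, with a median of 1.69. Foxq1 rose by 6.12 (SE 1.14) and Foxc1, a forkhead factor of mesenchyme, by 4.84 (SE 1.13). Foxc1 had 16.8 ± 21.4 CPM in the double KO, so its colonies were far apart. Klf8 fell by 3.51 (SE 0.38), and Gsc (goosecoid) had 0 reads against 2.89 ± 0.95 CPM in WT, at least 60.2-fold lower. The E-protein genes Tcf3 (0.78), Tcf4 (1.98) and Tcf12 (1.41), whose products pair with TWIST1, rose, and Tcf12 was the 1 gene of the list called in the miR-290 KO iPSC (1.13, SE 0.21, adjusted p = 0.0219).

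Genes that hold ZEB and SNAIL factors in check or keep cells epithelial were lower. Of 9 listed, 7 were in the matrix, 0 rose, 5 fell and 2 were not called in the double KO, with a median of −3.61. Elf3 fell by 4.60 (SE 0.89), Klf4 by 4.12 (SE 0.34) and Grhl2, a grainyhead factor that opposes Zeb1, by 3.61 (SE 0.60), beside Cdh1. Klf4, which also stands among the pluripotency markers, was 1 of the factors used to reprogram the cells, and reads of a transgene cannot be told apart here. Ovol2, a repressor of Zeb1, had a change of −1.16 (SE 0.67, adjusted p = 0.167). None of the 7 was called in the miR-290 KO iPSC.

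Cadherin, catenin and intermediate filament genes other than Cdh2 and Vim were mixed. Of 13 cadherins and catenins listed, 8 were in the matrix, with 3 higher and 2 lower in the double KO. Ctnnd2 (delta-catenin) rose by 3.99 (SE 0.38), Jup (plakoglobin) by 3.43 (SE 0.42) and Cdh4 by 2.53 (SE 0.51), while P-cadherin (Cdh3) had 0 reads against 3.63 ± 1.12 CPM in WT, at least 75.6-fold lower. Beta-catenin (Ctnnb1, −0.10) and alpha-catenin (Ctnna1, −0.16) were not called. Of 11 other intermediate filament genes, 10 were in the matrix, and 2 rose and 4 fell. The keratin genes Krt18 and Krt8 fell by 6.91 (SE 0.71) and 6.20 (SE 0.67). Lamin A (Lmna) rose by 4.92 (SE 0.38), and nestin (Nes), which assembles with vimentin, rose by 2.81 (SE 0.34). Nes was also the 1 filament gene called in the miR-290 KO iPSC (1.58, SE 0.34, adjusted p = 0.0398).

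TGF-beta is the best studied inducer of ZEB and SNAIL genes. Of 12 genes of its pathway listed, 10 were in the matrix, and in the double KO 4 rose, 1 fell and 5 were not called. The receptor gene Tgfbr2 rose by 6.12 (SE 1.07), from 0.36 ± 0.62 to 20.3 ± 0.02 CPM. Smad3 rose by 1.63 (SE 0.38) and Skil by 1.38 (SE 0.25), and the inhibitor Smad7 fell by 0.86 (SE 0.27). Of 14 epithelial junction genes listed, 13 were in the matrix, and 10 fell, 1 rose (Tjp1, 1.2, SE 0.28) and 2 were not called. The claudin gene Cldn4 fell by 8.89 (SE 0.29), Cldn6 by 6.60 (SE 0.71) and the polarity gene Crb3 by 4.97 (SE 0.80), and Cldn7 had 0 reads, at least 58.1-fold lower than WT. In the miR-290 KO iPSC, 0 genes of the TGF-beta, cadherin and junction lists were called.

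**Figure D4:**
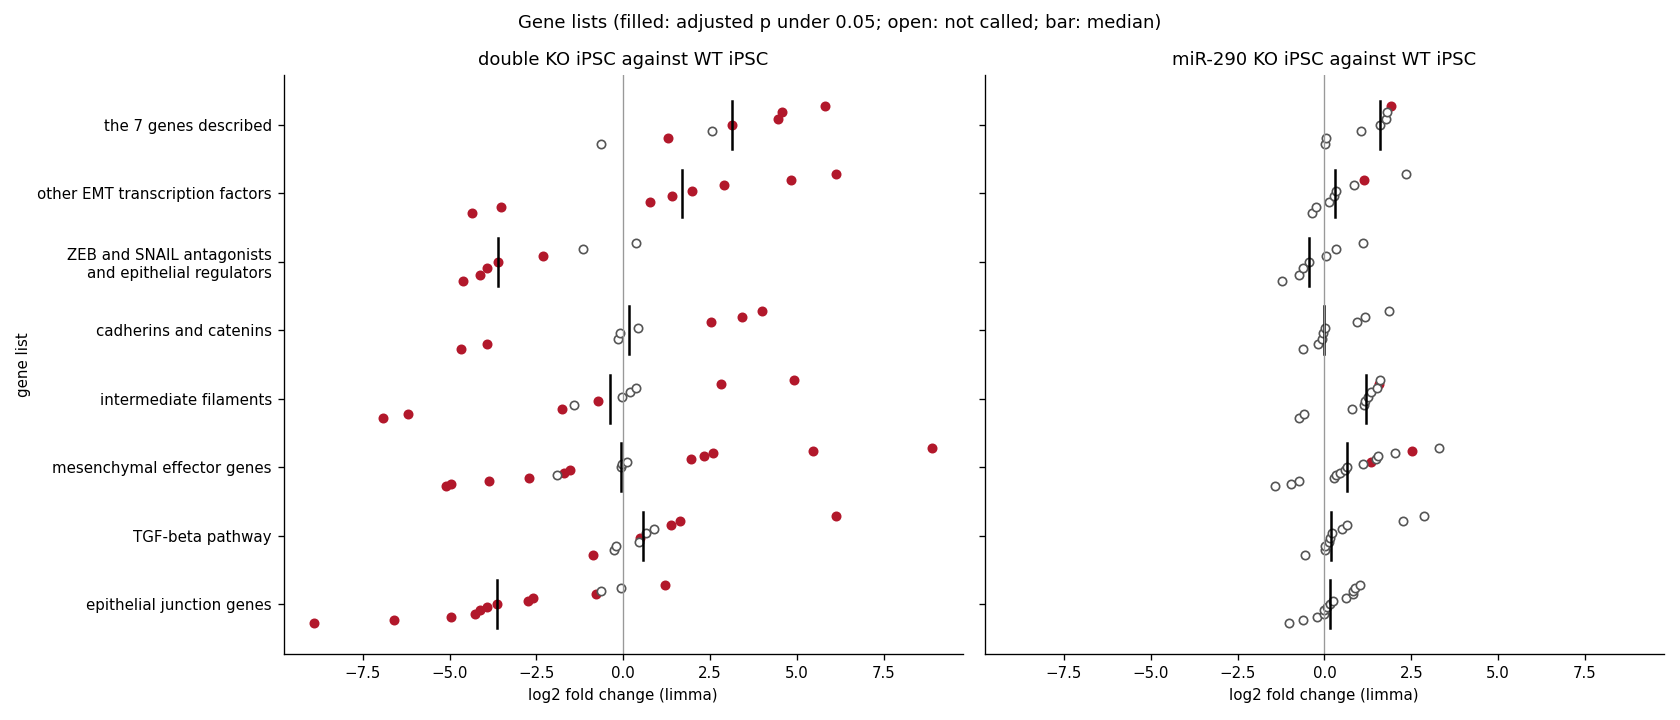
Log2 fold change (horizontal axis) of the genes of each list (vertical axis), left for double KO against WT iPSC and right for miR-290 KO against WT iPSC; a point is a gene, filled with an adjusted p under 0.05, and bars are medians. On the left the epithelial lists lie mostly below 0 (medians −3.61 and −3.62), while the mesenchymal effector genes lie on both sides of 0.

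Markers of other cells moved in the same samples. The fall of the pluripotency markers is given above. Of 10 embryonic fibroblast markers listed, 3 were in the matrix (Col1a1, Thy1 and Pdgfrb). Their sum was 0.291 to 1.01 CPM in the double KO libraries and 6.12 to 7.96 CPM in WT. Thy1 and Pdgfrb fell in the double KO, and Col1a1 was not called (−1.92, adjusted p = 0.123). The miR-290 KO iPSC libraries had a sum of 5.23 to 14.2 CPM. Neural markers (8 of 10 in the matrix) summed to 138 to 154 CPM in the double KO and 119 to 273 CPM in the miR-290 KO iPSC, against 41.2 to 87.6 CPM in WT. In the double KO 2 of the 8 rose, 3 fell and 3 were not called, with a median of −1.28. Among them Nes, named above, and Sox1, a neural progenitor factor, were the 2 that rose in either genotype. Sox1 rose in the double KO (4.59, SE 0.41) and in the miR-290 KO iPSC (3.23, SE 0.41, adjusted p = 0.00499), while Elavl3 (−3.74), Pax6 (−2.43) and Tubb3 (−2.17) fell in the double KO. Summed mesoderm markers (5 of 8) were 21.6 to 31.8 CPM against 17.7 to 21.2 CPM in WT, although 1 of the 5 rose (Kdr, 6.02), 2 fell (the brachyury gene T, −4.88, and Mixl1, −2.93) and the median was −1.06. The sums were for endoderm markers (3 of 8) 0.305 to 2.68 against 5.63 to 7.75 CPM and for trophoblast markers (4 of 7) 2.03 to 43.2 against 49.8 to 143 CPM. The part of these markers in the levels of the 7 genes was not tested.

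The genes whose log2 values most resembled those of each member over the 13 samples were named by Pearson's r, as a description. The double KO colonies stand apart in most members and weigh heavily in r, and samples of a group share their genotype. For Vim they were Ergic1 (0.990), Frmd4b (0.989) and Cr1l (0.983), for Cdh2 Kif13a (0.984), Emp3 (0.976) and Syde1 (0.975), and for Zeb2 Mef2c (0.975), Micu2 (0.965) and Tenm2 (0.962). Snai1 had Sox13 (0.941), Pdlim5 (0.931) and Cdk17 (0.919), and Snai2 had Tmed3 (0.931), Pou6f1 (0.913) and Gemin8 (0.906). The values were lower for Twist1, with Slco2a1 (0.891), Nudt10 (0.889) and Itm2a (0.887). Zeb1 had Chtf8 (0.928), Bax (0.928) and Swi5 (0.926).

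The authors' deposited table of double KO against WT, which lists genes with an adjusted p of at most 0.05, held 6 of the 7 members. In that table the log2 fold changes were 4.14 for Vim, 4.25 for Cdh2, 5.48 for Zeb2, 1.03 for Zeb1, 3.02 for Snai2 and 2.54 for Twist1 (adjusted p = 0.000401). Snai1 was not among its 8672 genes. The authors' deposited table of miR-290 KO against WT held 4 members among 1429 genes, namely Vim (1.72), Cdh2 (1.72), Zeb1 (1.14) and Twist1 (2.21). Cdh2, Zeb1 and Twist1 were past the threshold there and not in the limma fit, also with each library as a sample (adjusted p = 0.113, 0.227 and 0.324). The authors' deposited table of miR-302 KO against WT held 0 members. Cdh1, which is not a member, was lower in their double KO table (−3.52) and in their miR-290 KO table (−0.75). The limma fit called only the first of these.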

How the data were processed

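RNA of 19 libraries was sequenced from transcript 3′ ends. The submitters' processing notes name mm10, Trim Galore 0.66, STAR, Salmon 1.4.0, FastQC 0.11.9, MultiQC, limma and DESeq2 1.34.0, with no roles. The authors' deposited matrix holds log2 values for 12778 genes. From the values, these are log2 CPM with a prior (mean 2.41 reads) and a constant per gene. Whole reads within 0.02 were recovered for 12102 genes (94.7%), in which 99.8% of values were whole, and for 7 of 7 members in 19 of 19 libraries. The matrix is described as counts, but its values are not, so a count model was not used. The authors' deposited comparison tables give a mean signal per gene (counts divided by size factors), and recovered reads lay within 5% of it for 100% of shared genes. Those deposited tables also give the authors' log2 fold changes, standard errors, test scores and p-values, per the file headers. In the matrix, 6 columns of other samples were not used.

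The deposited log2 values of a colony's libraries were averaged, and 13 samples in 6 groups entered 1 fit (limma 3.58.1, R 4.3.3; 7 residual degrees of freedom, spread moderated with a trend, Benjamini-Hochberg over all genes in each of 10 comparisons). The prior shrinks changes of weakly expressed genes. The fit was tested on simulated data. The members and lists were chosen with earlier results of these data known. All members were named, and from each list up to 4 called genes with the largest change in double KO against WT; further list genes were chosen after their values were seen. One gene that this rule names is not reported here. The 3 genes most like each member were named by Pearson's r. Floors were 3 reads, and intervals 95%. Alternatives covered scaling, filter, pseudocount, sample definition, spread model, block and each sample left out.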

Additional observations from a re-analysis of the deposited data

Results flagged for a closer look

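Zeb1 had 55.7 CPM in miR-302 KO iPSC colony 1 library 2, a library far from the other 3 of its group (14.9 to 19.4 CPM). This was found among 20 pairs of gene and group with 4 libraries, of which chance flags about 5%. The same library had the lowest Cdh2 (1.19 CPM) and Snai1 (0.274 CPM) of its group and the highest share of reads in its 20 most abundant genes (17.3%). The part of that library's quality in these values was not tested.

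The double KO differed from the sum of the single KO changes in Vim by 2.52, in Zeb2 by 5.85 and in Cdh2 by 3.57 on the log2 scale (limma, adjusted p = 0.00192, 0.00477 and 0.00989). These members were flagged because the effect of losing a cluster differed with the presence of the other. All 3 calls held in each of the 23 other analyses run, although the call of Cdh2 came close to the threshold. The Zeb2 value depends on the prior, since the miR-302 KO iPSC had 0 reads.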

How the results depend on the processing

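Each of 10 comparisons was run under 23 alternatives, and no member's called change reversed. In double KO against WT, 5 members were called; leaving out 1 sample gave 3 to 6, with 3 without double KO colony 1. In miR-290 KO against WT the 1 call (Vim) became 0 without either miR-290 KO colony (range 0 to 1). In miR-290 KO against miR-302 KO iPSC the 1 call became 2 with only genes of at least 10 mean recovered reads, 2 with log2(CPM + 1), 3 with each library as a sample, 0 with only the groups compared in the fit and 0 with sample weights. With 1 sample left out it ran from 0 to 2. A lone remaining colony was taken to vary like the other groups. Median-of-ratios scaling moved the median of all genes in double KO against WT from 0.16 to 0.01 and changed no member's call there.

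Samples were numbered by colony in the KO iPSC and by library in the WT iPSC and ESC. Deviations of the samples numbered 1 correlated from −0.27 to 0.12 over 15 pairs. Libraries of a colony were averaged first, so whether their replicate numbers mark a batch was not tested. With a block on these sample numbers, 5438 genes were called in double KO against WT instead of 6255, and 55 in miR-290 KO against WT instead of 201. The members called under the block were 5 and 1 in these comparisons, as without it. At 3 reads over a group, levels under 0.044 to 0.087 CPM were not detectable.
Over all genes, the 201 calls in miR-290 KO against WT became 369 with log2(CPM + 1), 409 with each library as a sample, 386 with sample weights and 339 without miR-302 KO iPSC colony 1 library 2. With 1 sample left out they ran from 2 (without miR-290 KO colony 2) to 300.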
